A study of Mus musculus with 12 samples.

Results

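The genes described here are 5 that encode myeloid granule proteins (Mpo, Elane, Prtn3, Ctsg and Lyz2) and 5 that encode transcription factors of the myeloid lineage (Cebpa, Cebpb, Spi1, Gfi1 and Irf8). They were chosen by name and are 10 of the 32285 genes quantified by bulk RNA-seq in progenitors sorted from bone marrow (BM). The libraries came from wild-type (WT) C57BL6/J mice at 1 month (1MO) or 3 months (3MO) of age, and no group carried a transgene or received a treatment according to the labels. From each age, 3 libraries were made of Ly6d- CLPs, common lymphoid progenitors that lack the B-lineage surface protein Ly6d, and 3 of Flk2+ MPPs, multipotent progenitors that carry the cytokine receptor Flk2 (gene Flt3), giving 4 groups and 12 libraries. The 2 questions put to the genes were whether their levels differed between the cell types at each age and between the ages in each cell type.

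Granule proteins are made in early neutrophil and monocyte precursors and are packed into the primary (azurophil) granules, from which they are released to kill microbes. Myeloperoxidase (Mpo) makes hypochlorous acid, neutrophil elastase (Elane), proteinase 3 (Prtn3) and cathepsin G (Ctsg) are serine proteases, and lysozyme M (Lyz2) cuts bacterial cell walls and is also abundant in monocytes and macrophages. C/EBPα (Cebpa) is required for the step from multipotent to granulocyte-monocyte progenitors, C/EBPβ (Cebpb) drives granulocyte production under stress, PU.1 (Spi1) acts in both myeloid and lymphoid progenitors, Gfi1 is a repressor needed for neutrophil maturation, and Irf8 directs monocyte and dendritic cell development and restrains that of neutrophils.

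Each library held 8889083 to 20677785 estimated counts assigned to genes (median 13208993), and all 10 genes passed the filter on low counts. Levels are given as CPM, the counts of a gene as a share of its library on a common scale, corrected by TMM factors. The labelled cell types were checked against their markers. Il7r averaged 371 CPM in 1MO CLPs against 10.4 CPM in 1MO MPPs, while Kit averaged 296 CPM against 737 CPM. The libraries numbered 3 stood apart in every group, with 86.0 to 138 CPM summed over 8 erythroid markers against 16.9 to 33.5 CPM in the other 8 libraries. Bone stroma markers (Col1a1, Col1a2 and Bglap) summed to 200 to 571 CPM in the 1MO CLPs to 0 to 1.92 CPM in the 3MO CLPs, to 7.77 to 76.1 CPM in the 1MO MPPs and to 4.75 to 10.9 CPM in the 3MO MPPs. At 1MO the sum thus differed between the cell types without overlap. The part of erythroid and stroma cells in the results below was not tested. The values without the libraries numbered 3 leave out the high erythroid sums. They keep the high stroma sums of the first and second 1MO CLP libraries (571 and 200 CPM). In sorted populations, fewer expressing cells and less RNA per cell cannot be told apart.

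The 4 serine protease and peroxidase genes are shown first by their promoters, because Elane and Prtn3 are neighbours on chromosome 10, 3072 bases apart and transcribed in the same direction, and yet differed in their pattern over the cell types. The sequences are RefSeq promoter sequence of build GRCm38.p6, cut to the longest stretch outside the exons of the gene in GENCODE M21, and written 5′ to 3′ on the strand of the gene. The Prtn3 stretch is upstream of its RefSeq start site but inside the gene as GENCODE draws it, which begins further upstream. Capitals mark GAGGAA, a sequence of the kind bound by PU.1 and other ETS factors.
Mpo, chr11:87793534-87793580, plus strand: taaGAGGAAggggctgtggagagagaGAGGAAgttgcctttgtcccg
Elane, chr10:79886062-79886246, plus strand: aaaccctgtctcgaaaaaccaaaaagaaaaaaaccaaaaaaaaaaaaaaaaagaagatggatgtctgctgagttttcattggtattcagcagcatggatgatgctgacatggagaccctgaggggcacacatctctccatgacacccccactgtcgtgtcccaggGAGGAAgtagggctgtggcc
Prtn3, chr10:79879417-79879613, plus strand: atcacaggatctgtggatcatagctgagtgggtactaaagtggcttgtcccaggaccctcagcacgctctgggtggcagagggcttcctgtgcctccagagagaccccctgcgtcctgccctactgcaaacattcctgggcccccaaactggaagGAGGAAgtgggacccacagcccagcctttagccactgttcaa
Ctsg, chr14:56102575-56102824, minus strand: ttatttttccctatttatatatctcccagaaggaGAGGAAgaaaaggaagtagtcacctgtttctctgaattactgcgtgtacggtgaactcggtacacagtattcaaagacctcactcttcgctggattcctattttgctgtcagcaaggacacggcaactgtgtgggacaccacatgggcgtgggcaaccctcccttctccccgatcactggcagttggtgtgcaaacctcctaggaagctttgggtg
Counted from the RefSeq start site, GAGGAA stood at -247 to -242 and -224 to -219 in Mpo, at -85 to -80 in Elane, at -95 to -90 in Prtn3 and at -216 to -211 in Ctsg, each time on the strand of the gene. Thus both neighbours held it, at a like distance. None of these 5 matches overlapped a match to the other 2 motifs searched.

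RefSeq promoters were at hand for 9 of the 10 genes, with 11 windows of 250 bases because Gfi1 and Irf8 have 2 each, and Spi1 was not matched. Searched on both strands, GAGGAA was in 4 of the 11 windows (36.4%) and in 23.3% of 32851 mouse promoter windows. The C/EBP motif TTGCNNAA was in 1 of the 11 (9.09%), that of Gfi1, and in 9.56% of all windows. The Myb motif AACNG was in 9 of the 11 (81.8%) and in 74.2% of all windows, so it is common everywhere. The motifs were picked after the sequences had been seen, and a match describes letters and not a bound site.

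Between the cell types at 1MO, 4 of the 10 fell below an adjusted p of 0.05 in edgeR's quasi-likelihood test. This compares with 5.38% of all 13367 genes tested. Irf8 and Elane were higher in CLPs, by 11.9-fold and 3.19-fold, and Cebpa and Gfi1 were lower, by 2.25-fold and 2.12-fold. At 3MO, 2 genes passed, against 6.07% of all genes. Irf8 was again higher in CLPs, by 8.52-fold, and Prtn3 was lower by 2.03-fold. The median log2 fold change of the 10 genes was -0.25 at 1MO and -0.23 at 3MO, where the median of all tested genes was -0.02 and -0.03. Counting genes whose 3 CLP libraries all lay outside the range of the 3 MPP libraries, there were 6 of 10 at 1MO (24.9% of all genes) and 5 of 10 at 3MO (21.8% of all genes).

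**Figure D1:**
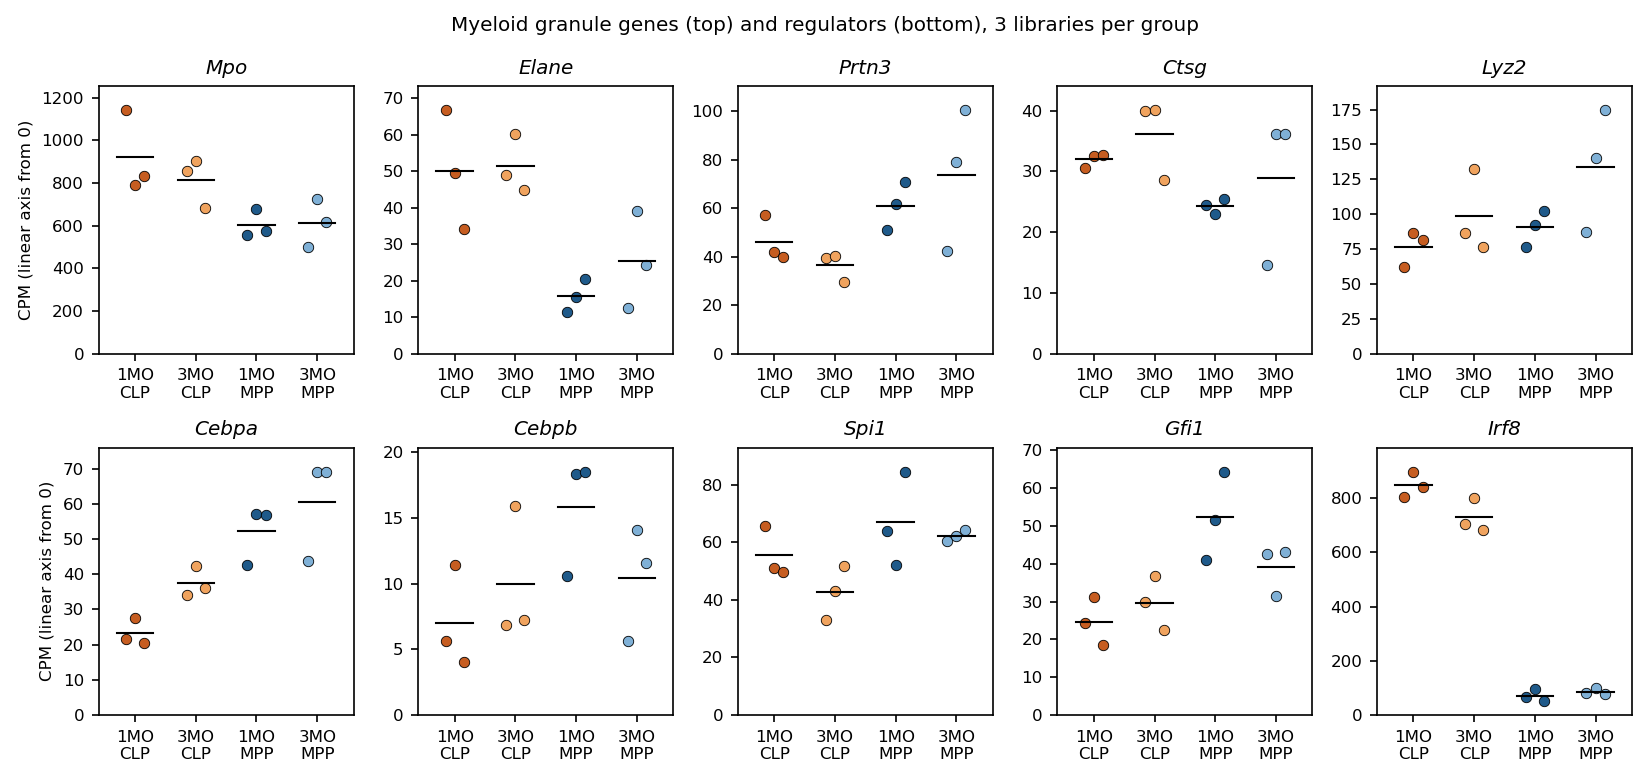
CPM of each gene in every library on linear axes that start at 0, with granule genes above and regulators below. Points are libraries, 3 per group, and bars are group means. Irf8 in CLPs (682 to 897 CPM) lies far above Irf8 in MPPs (51.3 to 99.6 CPM), Cebpa shows the reverse order without overlap, and the other 8 genes overlap between the cell types when the ages are put together.

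Among the granule genes, Mpo had the most RNA. Mpo was at 1140, 792 and 831 CPM in the 1MO CLPs and at 557, 680 and 576 CPM in the 1MO MPPs. The 3MO values were 857, 903 and 684 CPM in CLPs and at 498, 722 and 617 CPM in MPPs. Every 1MO CLP library was above every 1MO MPP library, whereas 1 CLP library lay within the MPP range at 3MO. For CLPs over MPPs the log2 fold change was 0.61 ± 0.18 (SE) at 1MO, which missed the threshold (adjusted p = 0.0707, edgeR), and 0.41 ± 0.18 at 3MO (adjusted p = 0.232). With DESeq2 in place of edgeR the 1MO difference had an adjusted p of 0.0232. In edgeR it also passed with no filter on low counts (adjusted p = 0.0258) and with a replicate block on the number (0.0391). It passed as well without the first 3MO MPP library (adjusted p = 0.041). In 17 of the 21 alternatives it still missed. Of the exon bases of Mpo, 512 of 3424 (15%) are shared with an antisense gene, Gm11505.

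Elane was at 66.7, 49.6 and 34.0 CPM in the 1MO CLPs and at 11.3, 15.4 and 20.3 CPM in the 1MO MPPs. In the 3MO libraries it was at 48.8, 60.2 and 44.8 CPM in CLPs and at 12.6, 39.1 and 24.2 CPM in MPPs. The cell types did not overlap at either age, although the highest MPP library (39.1 CPM) exceeded the lowest CLP library of the other age (34.0 CPM). On the log2 scale CLPs over MPPs gave 1.67 ± 0.37 at 1MO (95% interval 0.89 to 2.46, adjusted p = 0.0121) and 1.01 ± 0.36 at 3MO (0.24 to 1.78, adjusted p = 0.122). The 1MO call was lost without the first 1MO CLP library (adjusted p = 0.0525), the first 1MO MPP library (0.0738) or the second 1MO MPP library (0.0521). At 3MO the difference was past the threshold without the second 3MO MPP library, the one with the most Elane (log2 fold change 1.47, adjusted p = 0.0371), and also with all libraries and no filter on low counts (1.015, adjusted p = 0.0351). In 19 of the 21 alternatives it still missed, with an adjusted p of up to 0.306. Among the fits that left out 1 library, the lowest log2 fold change was 0.69. Without the 4 libraries numbered 3, the 1MO difference was 2.13 (adjusted p = 0.0434).

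Prtn3 had the opposite sign to Elane. Its level was 56.9, 42.0 and 39.6 CPM in the 1MO CLPs and 51.0, 61.5 and 70.6 CPM in the 1MO MPPs, and these groups overlapped. The 3MO values were 39.6, 40.2 and 29.5 CPM in CLPs and 42.2, 78.9 and 100 CPM in MPPs. All 3 CLP libraries were lower than all 3 MPP libraries at that age, but the first MPP library was close to them. The log2 fold change was -0.40 ± 0.28 at 1MO (adjusted p = 0.6) and -1.02 ± 0.28 at 3MO (95% interval -1.62 to -0.42, adjusted p = 0.0427). The 3MO call was close to the threshold. It was lost in the fit with a replicate block of age and number (adjusted p = 0.0811), in the fit to only the libraries compared (0.128) and after thinning all libraries to the smallest (0.0509). It held in 3 of the 12 fits that left out 1 library, and among these 12 the adjusted p rose to 0.182, with a log2 fold change of -0.73, without the third 3MO MPP library. Without the 4 libraries numbered 3, the log2 fold change was -0.60 (adjusted p = 0.459). The 9 libraries whose loss ended the call were 1MO CLP 2, all 3 of the 1MO MPPs, all 3 of the 3MO CLPs, and 3MO MPP 2 and 3.

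Part of the Prtn3 gene runs opposite to Plppr3, which encodes a phospholipid phosphatase related protein of the cell membrane, and 159 of the 1732 exon bases of Prtn3 (9.18%) are shared with it. Plppr3 was itself lower in CLPs, at 53.8 to 112 CPM over both ages against 141 to 173 CPM in MPPs. Its log2 fold change was -1.15 at 1MO (adjusted p = 0.00504) and -0.93 at 3MO (adjusted p = 0.0198). The library kit keeps strand, but the strand setting used in quantification is not given in the sources used here, so the 2 genes are uncertain where they overlap. The part of Plppr3 in the Prtn3 values was not tested.

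The ratio of Elane to Prtn3 CPM within a library was 0.859 to 1.18 in 1MO CLPs, 1.24 to 1.52 in 3MO CLPs, 0.222 to 0.288 in 1MO MPPs and 0.242 to 0.496 in 3MO MPPs. All 6 CLP libraries were above all 6 MPP libraries. This ratio was formed after the values had been seen, so it is given as a description without a test.

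**Figure D2:**
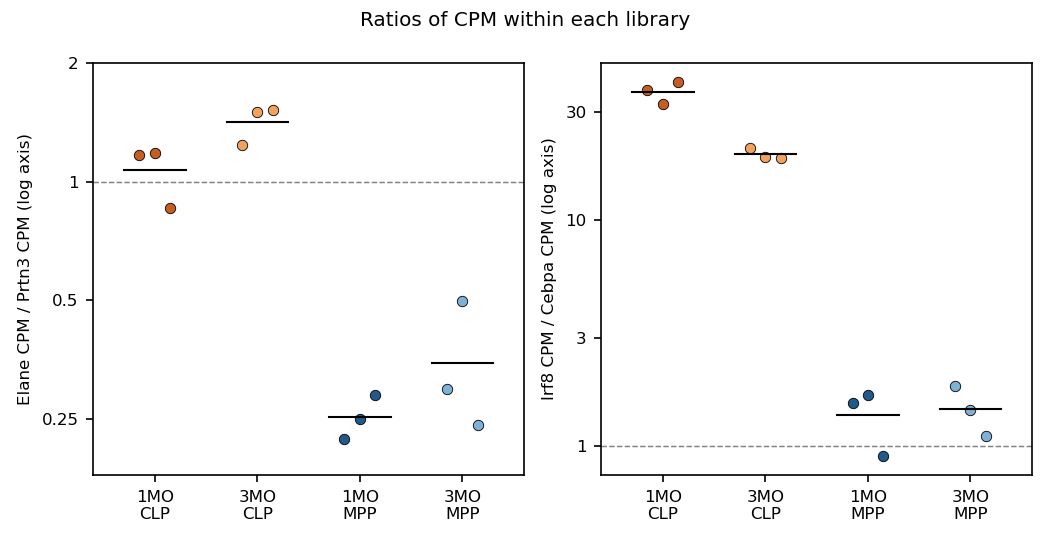
Ratio of Elane to Prtn3 CPM (left) and of Irf8 to Cebpa CPM (right) in each library, on log axes, with 3 libraries per group as points, group means as bars and a dashed line at a ratio of 1. The CLP libraries lie at 0.859 to 1.52 on the left and at 18.9 to 40.9 on the right, and the MPP libraries at 0.222 to 0.496 and 0.902 to 1.85.

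Ctsg was nearly level among the 1MO CLPs, at 30.6, 32.6 and 32.7 CPM, and among the 1MO MPPs, at 24.5, 23.1 and 25.4 CPM. In the 3MO libraries it was at 40.0, 40.0 and 28.6 CPM in CLPs and at 14.6, 36.1 and 36.2 CPM in MPPs. The 1MO groups did not overlap and the 3MO groups did, with the first 3MO MPP library the lowest of all 12. Neither difference passed, with a log2 fold change of 0.39 ± 0.30 at 1MO (adjusted p = 0.648) and 0.32 ± 0.30 at 3MO (adjusted p = 0.653).

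Lyz2 was at 62.0, 86.4 and 81.8 CPM in the 1MO CLPs and at 76.4, 92.5 and 102 CPM in the 1MO MPPs. At 3MO it was at 86.8, 132 and 76.6 CPM in CLPs and at 87.0, 140 and 175 CPM in MPPs. The cell types overlapped at both ages, and the log2 fold changes were -0.24 ± 0.26 (adjusted p = 0.805) and -0.44 ± 0.26 (adjusted p = 0.393). Its near-identical neighbour Lyz1 had 8 counts in all, in 1 library, so that few reads were given to the copy.

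Mpo took the larger share of granule gene CPM in every library. Of the CPM summed over the 5 granule genes, Mpo made up 79.0 to 84.1% in 1MO CLPs, 76.8 to 79.9% in 3MO CLPs, 72.5 to 77.9% in 1MO MPPs and 64.8 to 76.1% in 3MO MPPs. Lyz2 made up 4.57 to 8.63% in 1MO CLPs, 8.10 to 11.2% in 3MO CLPs, 10.6 to 12.9% in 1MO MPPs and 13.3 to 18.3% in 3MO MPPs, and in this order each CLP group overlapped the group after it while the MPP groups did not overlap each other. Prtn3 made up 3.42 to 4.20% in CLPs against 6.45 to 10.5% in MPPs. These shares are of CPM and not per length.

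Of the 5 regulators, Irf8 had by far the widest spread between the cell types. It was at 805, 897 and 841 CPM in the 1MO CLPs and at 65.9, 96.3 and 51.3 CPM in the 1MO MPPs. In 3MO mice it was at 706, 802 and 682 CPM in CLPs and at 80.6, 99.6 and 76.7 CPM in MPPs. The lowest CLP library was therefore far above the highest MPP library. On the log2 scale the difference was 3.58 ± 0.22 at 1MO (95% interval 3.12 to 4.04, adjusted p = 1.49e-07) and 3.09 ± 0.21 at 3MO (2.64 to 3.54, adjusted p = 8.92e-07). Under 21 alternatives at each age it stayed between 3.02 and 3.85 and past the threshold. Without the libraries numbered 3, it was 3.40 at 1MO and 3.07 at 3MO. GENCODE places Gm20388 over Irf8 on the same strand, but with 0 shared exon bases.

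Cebpa went the other way. It was at 21.5, 27.6 and 20.6 CPM in the 1MO CLPs and at 42.7, 57.1 and 56.9 CPM in the 1MO MPPs. At 3MO it was at 34.0, 42.3 and 36.1 CPM in CLPs and at 43.7, 69.1 and 69.0 CPM in MPPs. The 6 CLP libraries were all below the 6 MPP libraries, although by a narrow margin (42.3 against 42.7 CPM). CLPs over MPPs gave a log2 fold change of -1.17 ± 0.24 at 1MO (95% interval -1.67 to -0.66, adjusted p = 0.00697) and -0.69 ± 0.23 at 3MO (-1.19 to -0.19, adjusted p = 0.103). The 1MO call held in all 12 fits that left out 1 library, and the 3MO difference passed without the first 3MO MPP library (log2 fold change -0.88, adjusted p = 0.0328). Without the 4 libraries numbered 3 the 1MO value was -1.01 (adjusted p = 0.225). The ratio of Irf8 to Cebpa CPM was 32.5 to 40.9 in the 1MO CLPs, 18.9 to 20.8 in the 3MO CLPs and 0.902 to 1.85 in the 6 MPP libraries and, like the ratio of Elane to Prtn3, was formed after the values were seen.

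Gfi1 was at 24.3, 31.1 and 18.5 CPM in the 1MO CLPs and at 41.0, 51.5 and 64.4 CPM in the 1MO MPPs, without overlap. In 3MO mice it was at 29.9, 36.7 and 22.4 CPM in CLPs and at 42.5, 31.6 and 43.2 CPM in MPPs, with overlap. The log2 fold change was -1.09 ± 0.27 at 1MO (adjusted p = 0.0271) and -0.40 ± 0.27 at 3MO (adjusted p = 0.489). The 1MO call was lost without 1MO CLP 1 (adjusted p = 0.0734), 1MO CLP 3 (0.139), 1MO MPP 2 (0.0773) or 1MO MPP 3 (0.143). Gfi1 shares 101 of its 3187 exon bases (3.17%) with an antisense gene, A430072P03Rik. The call was also lost without the 4 libraries numbered 3 (log2 fold change -0.73, adjusted p = 0.469).

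Spi1 overlapped between the cell types at 1MO, at 65.8, 51.2 and 49.7 CPM in CLPs and at 64.1, 52.1 and 84.5 CPM in MPPs. At 3MO it was at 33.1, 43.1 and 51.6 CPM in CLPs and at 60.4, 62.3 and 64.2 CPM in MPPs, and here the groups did not overlap. The log2 fold change was -0.27 ± 0.22 at 1MO (adjusted p = 0.691) and -0.55 ± 0.22 at 3MO (adjusted p = 0.19), neither past the threshold.

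Cebpb had the largest SE of the 10 genes in both comparisons of the cell types. It was at 5.67, 11.4 and 3.998 CPM in the 1MO CLPs and at 10.6, 18.3 and 18.5 CPM in the 1MO MPPs. In the 3MO libraries it was at 6.86, 15.9 and 7.20 CPM in CLPs and at 5.60, 14.1 and 11.6 CPM in MPPs. In both CLP groups the second library was the highest. The log2 fold change was -1.16 ± 0.50 at 1MO (adjusted p = 0.246) and -0.06 ± 0.49 at 3MO (95% interval -1.102 to 0.985, adjusted p = 0.971). Cebpb shares 312 of its 1504 exon bases (20.7%) with Tmem189 on the opposite strand, a gene whose own log2 fold change was -0.40 at 1MO (adjusted p = 0.499).

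**Figure D3:**
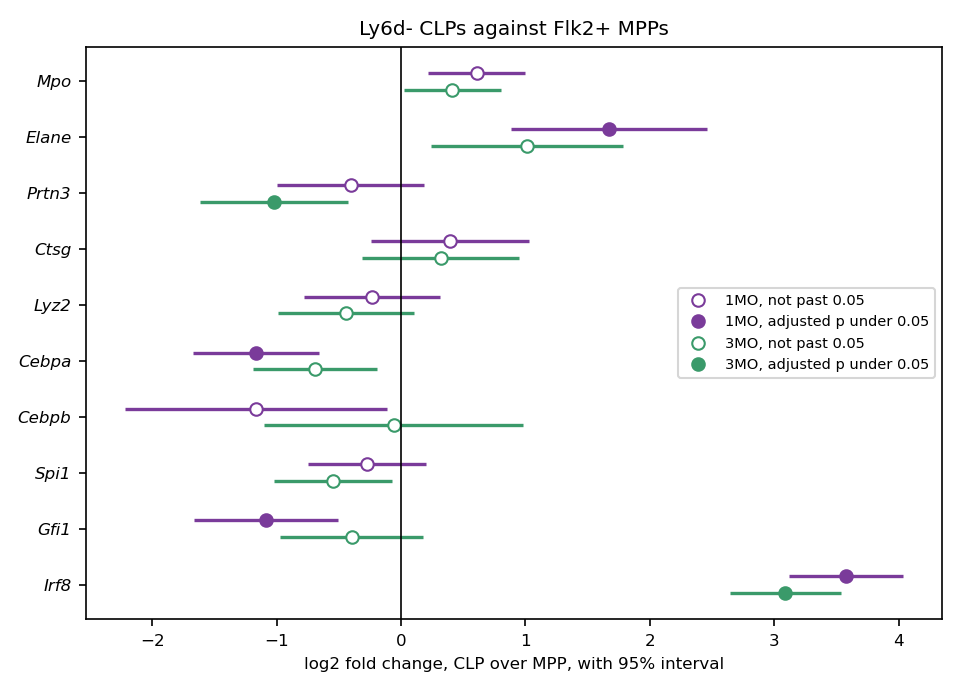
Log2 fold change of Ly6d- CLPs over Flk2+ MPPs for each gene at 1MO (purple) and 3MO (green), from the fit to all 12 libraries. Lines are 95% intervals, filled points passed an adjusted p of 0.05 and open points did not. Irf8, Elane, Cebpa and Gfi1 are filled at 1MO, and Irf8 and Prtn3 at 3MO.

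Within a group, levels can be ordered between genes per kilobase of exon. On the scale of CPM per kilobase, Mpo was first in all 4 groups, from 145 to 333 over the 12 libraries, and in each group it did not overlap the next gene. Irf8 was next in both CLP groups, at 114 to 127 in 1MO CLPs and 96.7 to 114 in 3MO CLPs. In the MPPs it was the last gene at 1MO (7.28 to 13.7) and 9th of 10 at 3MO (10.9 to 14.1). Lyz2 held rank 2 in MPPs and rank 3 in CLPs. Elane was 4th in both CLP groups and 8th in 1MO MPPs and 5th in 3MO MPPs, where it overlapped its neighbours in the order.

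Most of the lower ranks could not be separated. In the 1MO CLPs, the neighbours Lyz2 and Elane, Ctsg and Prtn3, Prtn3 and Spi1, Cebpa and Gfi1, and Gfi1 and Cebpb overlapped, and in the 1MO MPPs all neighbours from Prtn3 to Ctsg and from Cebpa to Irf8 did. In the 3MO CLPs, the overlapping neighbours were Irf8 and Lyz2, Lyz2 and Elane, Prtn3 and Spi1, Spi1 and Cebpa, and Gfi1 and Cebpb. In the 3MO MPPs they were those from Prtn3 to Cebpa and Gfi1 with Irf8. Set among all 13367 tested genes by mean CPM, not divided by length, Mpo was above 98.8 to 99.4% of them in the 4 groups. By the same mean CPM, Irf8 was above 99.2% and 99.0% in the 1MO and 3MO CLPs and above 73.7% and 77.8% in the 1MO and 3MO MPPs.

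Between 1MO and 3MO, none of the 10 genes passed in either cell type. Over all genes, 0.0748% passed in CLPs and 0.0224% in MPPs, so few calls were made anywhere. At an unadjusted p under 0.05, 1 of the 10 was reached in CLPs (Cebpa), against 5.90% of all genes, and 1 in MPPs (Lyz2), against 3.48%, while DESeq2 called 0 in both. The 3MO libraries did not overlap the 1MO libraries for 2 genes in CLPs, where 10.6% of all genes did so, and for 0 genes in MPPs, where 8.57% did. The median log2 fold change of 3MO over 1MO was 0.11 in CLPs and 0.24 in MPPs, against -0.01 over all genes in both.

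In the CLPs, Cebpa and Irf8 were the 2 genes without overlap between the ages, and they differed in direction. Cebpa was at 20.6 to 27.6 CPM at 1MO and 34.0 to 42.3 CPM at 3MO, a log2 fold change of 0.69 ± 0.24 (95% interval 0.19 to 1.19, adjusted p = 0.694). Irf8 was at 805 to 897 CPM at 1MO and 682 to 802 CPM at 3MO, a log2 fold change of -0.22 ± 0.19 (-0.63 to 0.20, adjusted p = 0.935). The other intervals in CLPs all spanned 0, from that of Mpo (-0.57 to 0.21) to that of Cebpb (-0.54 to 1.56). In the MPPs, Lyz2 had a log2 fold change of 0.57 ± 0.26 (0.02 to 1.11, adjusted p = 1) and Elane of 0.69 ± 0.36 (-0.08 to 1.47, adjusted p = 1). These intervals leave room for differences of more than 2-fold for several genes, so the misses do not show that the ages were alike.

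**Figure D4:**
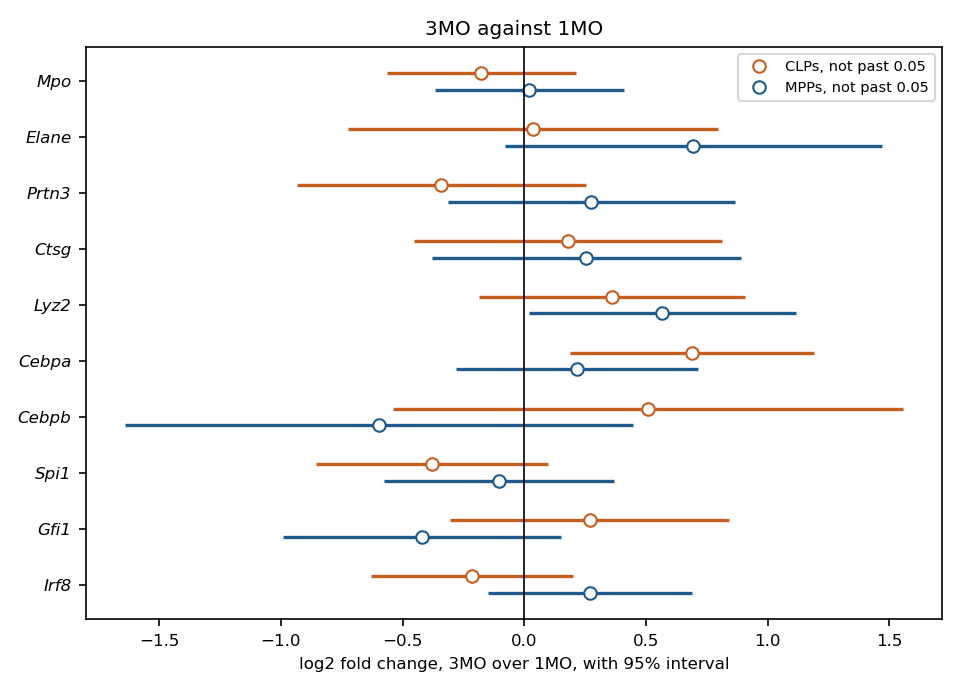
Log2 fold change of 3MO over 1MO for each gene in CLPs (orange) and MPPs (blue), with 95% intervals. No gene passed an adjusted p of 0.05, and the intervals that leave out 0 are those of Cebpa in CLPs (0.19 to 1.19) and Lyz2 in MPPs (0.02 to 1.11).

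The change with age was also compared between the cell types by an interaction term, the CLP log2 fold change minus the MPP one. No gene of the 10 passed, and none of the 13367 did (0.00%). Without adjustment, 429 genes were under 0.05, with 0 of the 10 among them, and DESeq2 called 7 genes. The estimates ran from -0.66 for Elane (95% interval -1.74 to 0.42) to 1.11 for Cebpb (-0.37 to 2.58). The calls made at 1MO and not at 3MO for Elane, Cebpa and Gfi1 are thus not shown to differ between the ages, nor is the call of Prtn3 at 3MO.

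Markers of mature neutrophils were read beside these values. Summed over 8 markers, they were at 31.7, 28.8 and 31.7 CPM in the 1MO CLPs, at 35.1, 103 and 74.6 CPM in the 3MO CLPs, at 36.4, 43.2 and 25.4 CPM in the 1MO MPPs and at 51.4, 127 and 162 CPM in the 3MO MPPs. The 3MO groups lay above the 1MO groups in both cell types. The defining surface marker Ly6g was at 0 in both 1MO groups, and Retnlg was at 0 in the 1MO CLPs. At 3MO, Ly6g averaged 0.13 CPM in CLPs and 0.07 CPM in MPPs, too low to be tested. Retnlg averaged 0.55 CPM in the 3MO CLPs, at 0 to 1.66 CPM. Of the 7 markers tested, the log2 fold change with age was above 0 for 7 in CLPs and 6 in MPPs. The exception was Cxcr2, at 4.22 CPM in 1MO and 2.31 CPM in 3MO MPPs. None of the 7 passed with age. In the 3MO MPPs, Prtn3, Ctsg, Lyz2 and Spi1 had the same order of libraries as the marker sum, and the other 6 genes did not. In the 3MO CLPs, Cebpa and Cebpb had it, and Lyz2 and Prtn3 did not. Per the methods, BM cells that carried surface markers of mature myeloid, erythroid, B or T cells were depleted before the progenitors were sorted. How complete this depletion was is not given in the sources used here. The part of such cells in these values was not tested.

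**Figure D5:**
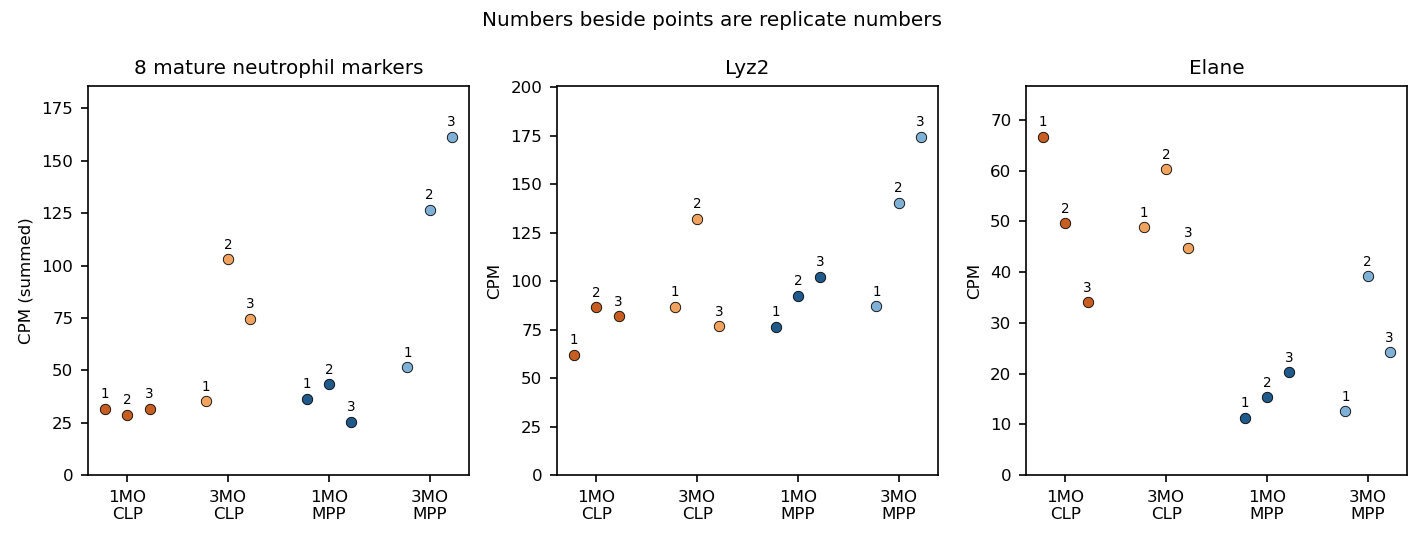
Summed CPM of 8 mature neutrophil markers, and CPM of Lyz2 and Elane, in each library on linear axes from 0, with the replicate number beside each point. The marker sum reaches 162 CPM in the 3MO MPPs and does not exceed 43.2 CPM at 1MO, Lyz2 is highest in the same 3MO MPP library (175 CPM), and Elane is highest in a 1MO CLP library (66.7 CPM).

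The wider myeloid programme was read from 5 lists of genes. Over all 13367 genes, 2.57% were higher and 2.81% lower in CLPs at 1MO, and 2.73% and 3.34% at 3MO, with medians of -0.02 and -0.03, which are the background for each list count below. Of 10 other genes of primary granules, 8 were tested, and at both ages 1 passed and was lower in CLPs. This was Cd63, a membrane protein of granules and lysosomes, at 8.57 CPM in 1MO CLPs and 33.1 CPM in 1MO MPPs (log2 fold change -1.95, adjusted p = 0.00293). The next by p at 1MO did not pass. Mcpt8, a basophil protease, had -1.46 (adjusted p = 0.061), Cst7, an inhibitor of cysteine proteases, had 1.096 (0.065) and Prss57, another granule serine protease, had 0.99 (0.074). The list median was -0.15 at 1MO and -0.09 at 3MO.

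Of 14 genes of secondary and tertiary granules and mature neutrophils, 13 were tested, and 1 passed at each age, lower in CLPs. It was Padi4, which citrullinates histones, with a log2 fold change of -1.95 at 1MO (adjusted p = 0.00189) and -2.01 at 3MO (adjusted p = 0.00152). Leaving out Retnlg, the list median of CLPs over MPPs was -0.18 at 1MO and -0.74 at 3MO. With age, no gene of the list passed. The log2 fold change was above 0 for 12 of 12 genes in CLPs (median 0.77) and for 11 of 12 in MPPs (median 1.52). Over all tested genes it was above 0 for 48.5% in CLPs and 48.1% in MPPs, with a median of -0.01 in both, and the list is described by these counts only. With Retnlg at the bound set by 3 counts over the 1MO CLP group, the CLP median was 0.81. Ngp, a protein of secondary granules, averaged 8.01 CPM in 1MO and 24.7 CPM in 3MO CLPs, and 9.14 CPM in 1MO and 40.4 CPM in 3MO MPPs (adjusted p = 0.571 and 0.384). The list shares genes with the neutrophil markers above, so the 2 are not separate observations.

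Among 8 receptors for myeloid growth factors and immune ligands, 1 was higher and 1 lower in CLPs at each age. Csf1r, the receptor for the macrophage growth factor, averaged 98.1 CPM in 1MO CLPs and 38.5 CPM in 1MO MPPs, with a log2 fold change of 1.35 (adjusted p = 0.0135) and of 1.23 at 3MO (adjusted p = 0.0234). Csf3r, the receptor for the granulocyte growth factor G-CSF, averaged 36.1 against 151 CPM at 1MO, a log2 fold change of -2.07 (adjusted p = 0.000196) and of -2.28 at 3MO (adjusted p = 0.000106). The median of the list was 0.04 at 1MO and -0.21 at 3MO. None of the 8 passed with age.

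A list of 12 other regulators of myeloid development was also read. None passed at 1MO, where the median log2 fold change was 0.48, and 1 was higher in CLPs at 3MO, where the median was 0.06. That gene was Zeb2, a repressor used in monocyte and dendritic cell development (log2 fold change 0.83 at 3MO, adjusted p = 0.0477). The smallest p at 1MO were those of Myb (0.49, adjusted p = 0.0891), Id2 (1.47, 0.148), Egr1 (-1.70, 0.153) and Etv6 (-0.40, 0.159), none of which passed.

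Of 12 genes of monocytes and dendritic cells, 11 were tested, and 5 were higher and 0 lower in CLPs at 1MO. The median log2 fold change was 0.78. Ly86, a partner of a Toll-like receptor homologue, averaged 41.6 against 3.56 CPM (log2 fold change 3.55, adjusted p = 4.82e-05). Siglech, a surface lectin of plasmacytoid dendritic cells, averaged 69.3 against 3.09 CPM (4.48, adjusted p = 0.000567). The others were F13a1 (1.64, adjusted p = 0.0136), Tcf4 (0.78, 0.0213) and Ly6c2 (1.62, 0.0251). At 3MO, Ly86 (2.98, adjusted p = 0.000214) and Siglech (4.08, 0.00122) passed, with a list median of 0.45. The genes that passed thus had the sign of Irf8, and a list of 6 monocyte and macrophage markers summed to 172 to 301 CPM in CLPs and 75.2 to 139 CPM in MPPs. Most of this sum came from Csf1r, F13a1 and Ccr2, which are in the lists above, so it is not a separate observation. The macrophage markers Cd68, C1qa and C1qb were low, with means of 0.0264 to 8.36 CPM in the 4 groups, and Cd68 averaged 6.89 CPM in 1MO CLPs against 5.93 CPM in 1MO MPPs and 6.11 against 8.36 CPM at 3MO. The part of monocytes in the Irf8 values was not tested.

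The genes most alike in pattern were found by the root mean square difference of log2 CPM, centred per gene, over the 12 libraries, as a description without a test. For Irf8, whose own SD was 1.77, the nearest were Mpeg1, which encodes perforin-2 (0.265), and Cmah (0.334). For Cebpa (SD 0.591) they were Dipk1b (0.176), Mctp1 (0.216) and Tcp11l2 (0.222), and Tcp11l2 was also nearest to Gfi1 (0.259) and next to nearest to Cebpb (0.405). For Mpo (SD 0.338) the nearest was Trim11 (0.124), for Elane (SD 0.887) Sorl1 (0.364), for Prtn3 (SD 0.506) Nbdy (0.235), for Ctsg (SD 0.411) Itprid2 (0.141), for Lyz2 (SD 0.426) St14 (0.172) and for Spi1 (SD 0.343) Mlkl (0.16). None of the genes named here for their likeness was a granule gene from the lists above.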

How the data were processed

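RNA from 12 sorted BM populations was sequenced by the authors, who, per their methods, extracted UMIs, trimmed, removed ribosomal RNA, aligned with STAR and quantified with Salmon (build mm10 per the labels). The authors deposited length-scaled estimated counts per gene, which were rounded here. All 12 columns were matched to samples by their descriptions. Group, age and number came from the labels, and the number was not treated as a pairing in the main test. The study describes sorting per mouse and independent experiments, but the sources used here do not say which libraries share a mouse or whether a number marks an experiment, so p-values measure the spread between these libraries.

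Genes were filtered by filterByExpr, scaled by TMM and fitted for all 4 groups with edgeR 4.0.16 (R 4.3.3) in a quasi-likelihood test, with Benjamini-Hochberg adjustment over 13367 genes and a threshold of 0.05. Log2 fold changes are fitted values with SE and 95% intervals. No gene was rescaled by length except where CPM per kilobase is stated (exons of GENCODE M21, which matched 32158 of 32285 genes). Alternatives used DESeq2 1.42.0, other filters and scaling, blocks, thinning, and fits with libraries left out.

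The genes named were the 10 members, up to 4 genes of each of 5 lists with the smallest p in the 1MO cell type comparison, and, from the 3 genes most alike in pattern to each member, only those given in the text. Genes past the nearest are not reported here for most members. Genes of the cell type marker lists and Lyz1, the neighbour of Lyz2, were named as well. Ngp, Zeb2, Ly6c2 and the genes that overlap a member were added after their values were seen. The members and lists were chosen with earlier results of these data known. Depths of 8889083 to 20677785 counts limit the precision of genes with few counts. Intervals cover the spread between libraries.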

Additional observations from a re-analysis of the deposited data

How the results depend on the processing

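Over 21 alternatives for each cell type comparison and 20 for each age or interaction comparison, 966 of 1020 values of the 10 genes kept their direction and side of the threshold. Of the rest, 22 lost a call, 7 gained one and 25 changed sign, none of which had been called. The causes were not tested. DESeq2 called 1230 genes at 1MO and 1408 at 3MO between cell types, 66 and 35 with age in CLPs and MPPs, and 7 for the interaction. Without a filter on low counts the last 3 were 46, 26 and 6, and with at least 10 counts in every library the CLP and MPP age counts were 4 and 1. Fitting only the libraries compared gave 435 genes and 1 member at 3MO, and 4 genes for CLP age. Thinning left 1 member at 3MO.

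Correlation did not settle whether the replicate numbers pair the samples. The r of libraries with the same number was -0.034 to 0.213, and that of libraries with different numbers was -0.238 to 0.139. Whether a number marks a batch was not tested. A replicate block of age and number left 1 member at 3MO, Irf8, since Prtn3 lost its call (adjusted p = 0.0811), and gave 0.0065 for the Ctsg interaction. A replicate block on the number alone raised Mpo at 1MO past the threshold (adjusted p = 0.0391). It gave 915 genes at 1MO and 1007 at 3MO between the cell types, against 719 and 812 in the main fit.

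Leaving out 1 library at a time gave 460 to 887 genes and 2 to 5 members at 1MO, 1 to 3 members at 3MO, 6 to 10 genes for CLP age, 3 to 5 for MPP age and 0 to 1 for the interaction. The lowest at 1MO was without the first 1MO MPP library, and leaving out 1MO CLP 2, 1MO CLP 3 or 1MO MPP 3 gave 463, 473 and 477. Without 1MO CLP 1 or 1MO MPP 2 there were 2 members, without 3MO MPP 2 there were 5 genes for MPP age, and without 1MO CLP 1 or 3MO CLP 2 there were 6 for CLP age. The sign changed over these ranges of log2 fold change: Cebpb at 3MO (-0.57 to 0.22), and with age in CLPs Mpo (-0.27 to 0.005), Elane (-0.18 to 0.29) and Cebpb (-0.0054 to 1.06). In MPPs it did so with age for Mpo (-0.12 to 0.15), Prtn3 (-0.0117 to 0.55) and Spi1 (-0.26 to 0.10), and for the interactions of Ctsg (-0.39 to 0.12) and Lyz2 (-0.479 to 0.0304).

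Added after the data were seen, leaving out the 4 libraries numbered 3 gave 258 genes and 2 members at 1MO, 290 genes and 1 member at 3MO, 2 and 1 genes for age in CLPs and MPPs, and 1 for the interaction. The sign then turned for Spi1 at 1MO (0.0162), Cebpb at 3MO (0.2156), Elane with age in CLPs (-0.0958), Mpo (-0.0234) and Spi1 (0.0754) with age in MPPs, and the interactions of Ctsg (0.2397) and Lyz2 (0.129). Cebpa and Gfi1 at 1MO and Prtn3 at 3MO lost their calls.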
